A study of Mus musculus with 24 samples.

Results

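The major urinary proteins (MUPs) of the mouse are encoded by a cluster of closely related genes, interleaved with pseudogenes, on chromosome 4. The members described here were all entries whose gene name begins with Mup and a digit, or with Mup-ps, in 3 RNA-Seq tables of mouse liver. This gave 49 features of 69905 in the tables, or of 61548 with an Ensembl gene. A feature is 1 assembled transcript, and the tables list 1 for each locus. The 49 features belonged to 46 genes, 21 protein-coding and 25 pseudogenes, with 22 and 27 features. In the mouse assembly GRCm38, 47 of the features lay between positions 59956804 and 62150863 of chromosome 4, and the other 2 both belonged to Mup-ps22 on chromosome 11.

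MUPs are small secreted lipocalins, proteins that carry hydrophobic ligands in a barrel-shaped pocket. They are made mainly by hepatocytes, pass through the blood into urine, and there bind and slowly release volatile pheromones. Liver Mup expression is much higher in males, depends on the pulsatile male pattern of growth hormone acting through STAT5B, and is known to be lower in obese and insulin-resistant mice. Mup20 encodes darcin, a male pheromone in its own right, and circulating MUP1 is known as a regulator of glucose metabolism.

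The livers came from wild-type C57BL/6 mice, males of C57BL/6N by the methods of the study, injected intravenously with locked nucleic acids (LNA), antisense oligonucleotides with modified sugars that bring down the RNA they match. Sample labels give an age of 18 weeks and 12 weeks of LNA injections. The groups were Mafg LNA HFD, directed against a small MAF transcription factor under high-fat diet (HFD), Scr LNA HFD, the same diet with the control LNA labelled CTRL NEG A, LincIRS2 LNA NCD, directed against the long non-coding RNA 4833411C07Rik under the control diet NCD, and Scr LNA NCD, with 4 livers in each. HFD held 54% of energy as fat, 22% as carbohydrate and 24% as protein, and NCD held 11% as fat, 62% as carbohydrate and 27% as protein. The study gave mice saline or insulin shortly before collection, and the labels do not say which liver received which.

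For each group the authors deposited 1 pooled value per feature, in FPKM, fragments scaled to the length of the transcript and to all mapped fragments of the library. Values of single livers were not used here, so no standard deviation, interval or test can be given, no difference below has a replicate check, and the share of any group value that came from a single liver was not tested. Depth is unknown. Ratios are log2 values after adding 0.1 FPKM to both groups, which understates the difference of low features. A feature was compared when it reached 1 FPKM in the higher of both groups, and is called past 2-fold at a log2 ratio of at least 1 in size. A feature under 1 FPKM in the lower group entered only through the higher, which fixes its direction. This holds for members and for other genes alike. The Scr LNA HFD livers serve both the Mafg and the diet comparison, and the Scr LNA NCD livers serve both the diet and the LincIRS2 comparison, so these comparisons are not independent of each other.

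The targeted RNA could be looked up for LincIRS2, with 0.345 FPKM in LincIRS2 LNA NCD livers and 0.558 FPKM in Scr LNA NCD livers. It had 0.483 FPKM in Mafg LNA HFD livers and 0.213 FPKM in Scr LNA HFD livers, so that livers given the control LNA under HFD listed less of it than those given LincIRS2 LNA, and all values are below 1 FPKM. No feature carried the name Mafg, and its level could not be looked up. Hepatocyte markers were abundant, with Apoa2 between 2926 and 3946 FPKM in the 4 groups. The 4 erythroid markers (globin genes) summed to 995 FPKM in Mafg LNA HFD livers, against 2159 FPKM in Scr LNA HFD livers, and to 2240 FPKM in LincIRS2 LNA NCD livers, against 2279 FPKM in Scr LNA NCD livers. The 8 macrophage markers summed to 44.6 FPKM in Mafg LNA HFD livers, against 30.6 FPKM in Scr LNA HFD livers, and to 26.0 FPKM in LincIRS2 LNA NCD livers, against 50.2 FPKM in Scr LNA NCD livers. In bulk liver, fewer cells of a type and less RNA per cell cannot be told apart. A listed value is not the total of a gene. Ttr, an abundant liver transcript, stood at 0.0168 to 0.0403 FPKM, and Alb was listed at 0 in 3 groups and at 2805 FPKM, summed over its 2 features, in LincIRS2 LNA NCD livers.

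Because MUP genes resemble each other closely, how well a read can be placed differs between members. All 47 reference transcripts of the members were found in GENCODE M21 (GRCm38), and each was split into words of 76 bases, the length of the reads by the labels. For Mup3, 92.9% of words occurred in no other gene, as did 542 of the 602 words of Mup21, and for Mup20 56.6%. Mup3 and Mup21 shared words only with each other, and Mup20 only with the pseudogene Mup-ps19. The share was 31.7% for Mup17 and 14.4% for Mup11. For Mup15 and Mup19 it was 0%, so that every perfectly matching read from either also fits another gene. Values of Mup17, Mup15 and Mup11 therefore depend on how reads were divided among near-identical members, whereas Mup3 and Mup20 had no 76-base word in common.

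**Figure D1:**
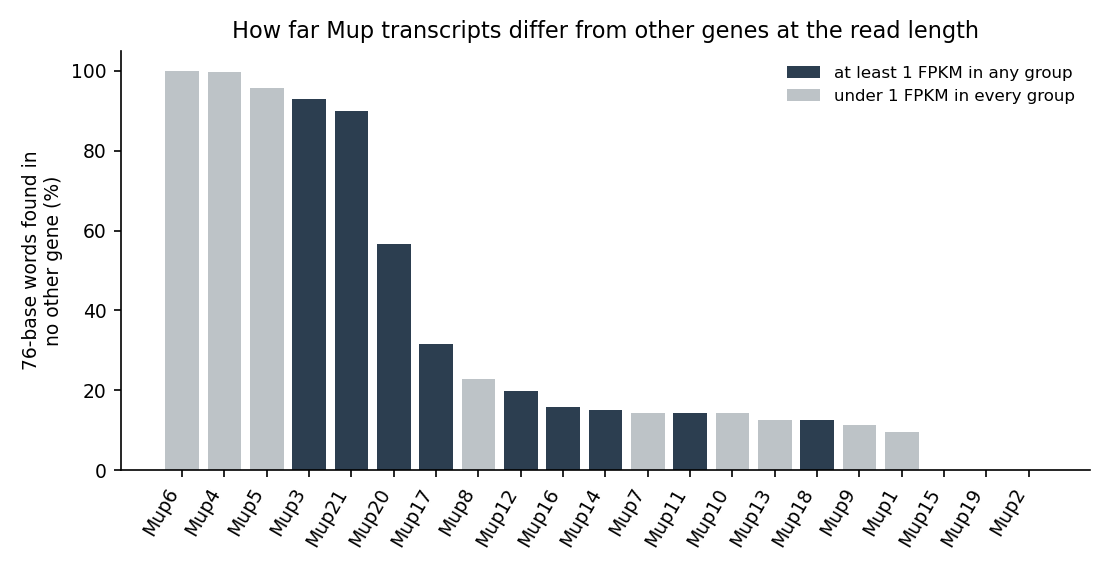
Share (%) of the 76-base words of each protein-coding Mup reference transcript that were found in no other gene of the annotation, for 21 genes. Dark bars are genes whose feature reached 1 FPKM in any group and grey bars the others. Mup3 stands at 92.9% and Mup20 at 56.6%, whereas Mup15, Mup19 and Mup2 stand at 0%.

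The following 60 coding bases, read 5′ to 3′ from the same place in the 6 most abundant protein-coding members, show how the family divides. The stretch was chosen because Mup3, Mup20 and Mup21 together differ most from Mup17 there, and capitals mark bases that differ from Mup17. All 6 lie on the minus strand of GRCm38 and cross an intron, so each spans more of the genome than it has bases: chr4:62085993-62086819 for Mup3, chr4:62052670-62053499 for Mup20, chr4:62149388-62150214 for Mup21, chr4:61594385-61595212 for Mup17, chr4:61438257-61439084 for Mup15 and chr4:60660922-60661749 for Mup11.
Mup3: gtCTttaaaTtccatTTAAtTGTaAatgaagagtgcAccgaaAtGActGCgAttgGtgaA
Mup21: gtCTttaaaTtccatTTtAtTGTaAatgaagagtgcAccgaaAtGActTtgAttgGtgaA
Mup20: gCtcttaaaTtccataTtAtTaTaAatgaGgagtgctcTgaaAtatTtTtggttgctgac
Mup17: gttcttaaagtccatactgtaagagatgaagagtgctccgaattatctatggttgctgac
Mup15: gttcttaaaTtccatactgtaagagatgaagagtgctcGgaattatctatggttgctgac
Mup11: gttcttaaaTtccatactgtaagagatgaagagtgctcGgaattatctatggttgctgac

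In this stretch Mup3 differed from Mup17 at 20 bases, Mup21 at 18 and Mup20 at 12, but Mup15 and Mup11 at only 2, and the last pair were identical to each other. Over the whole coding sequence, Mup3 and Mup21 were 96.3% identical and Mup3 and Mup20 88.0%. A central group of 7 members (Mup11, Mup12, Mup15, Mup16, Mup17, Mup18 and Mup19) was 98.5% to 99.8% identical in each of its 21 pairs. Mup20 was 90.9% to 91.5% identical to these 7, and Mup3 84.1% to 84.9%.

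Most of the 49 features were near 0. In all, 19 features reached 1 FPKM in any group, 12 of them protein-coding and 7 of them pseudogenes. The remaining 30 comprised 10 protein-coding and 20 pseudogene features. Of these 30, 11 were listed at exactly 0 in every group, 4 stayed under 0.001 FPKM and 15 reached at least that value. The protein-coding genes below 1 FPKM were Mup1, Mup2, Mup4, Mup5, Mup6, Mup7, Mup8, Mup9, Mup10 and Mup13, the highest of which was Mup9 with at most 0.575 FPKM. Of these 10 genes, 8 have more than 1 Ensembl transcript. Among the 64 consecutive transcript numbers from the first to the last Mup feature of the minus strand, 31 were listed and 27 of those were Mup features. Other transcripts of these loci were not analysed here, and low listed values such as those of Mup1 and Mup2 do not show that a gene was silent.

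A single gene, Mup3, dominated in 3 of the 4 groups. Its feature on the strand of the gene had 1709 FPKM in Mafg LNA HFD livers, 3345 FPKM in Scr LNA HFD livers, 4378 FPKM in LincIRS2 LNA NCD livers and 4944 FPKM in Scr LNA NCD livers. Among all features with an Ensembl gene it ranked 4 in each group other than Mafg LNA HFD, where it ranked 10. A second Mup3 feature, on the opposite strand as read off the numbering of the features, had 331 FPKM in Mafg LNA HFD livers, 646 FPKM in Scr LNA HFD livers, 871 FPKM in LincIRS2 LNA NCD livers and 940 FPKM in Scr LNA NCD livers. The ratio of the first to the second feature was nearly constant, between 5.03 and 5.26.

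Mup20 (darcin) followed, with 2936 FPKM in Mafg LNA HFD livers, 1170 FPKM in Scr LNA HFD livers, 1927 FPKM in LincIRS2 LNA NCD livers and 2218 FPKM in Scr LNA NCD livers. It was the only protein-coding feature of these 19 that was highest with Mafg LNA. Mup21, the close relative of Mup3, had 63.9 FPKM in Mafg LNA HFD livers, 141 FPKM in Scr LNA HFD livers, 348 FPKM in LincIRS2 LNA NCD livers and 371 FPKM in Scr LNA NCD livers, and thus the order of groups seen for Mup3.

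Mup17 and Mup15, the most abundant of the central group, were far lower than Mup3 and Mup20 and had another order of groups. Mup17 had 80.3 FPKM in Mafg LNA HFD livers, 95.6 FPKM in Scr LNA HFD livers, 446 FPKM in LincIRS2 LNA NCD livers and 149 FPKM in Scr LNA NCD livers. Mup15 had 45.7 FPKM in Mafg LNA HFD livers, 53.7 FPKM in Scr LNA HFD livers, 357 FPKM in LincIRS2 LNA NCD livers and 136 FPKM in Scr LNA NCD livers. Both were highest with LincIRS2 LNA. The ratio of Mup17 to Mup15 was 1.76 in Mafg LNA HFD livers and 1.78 in Scr LNA HFD livers, but 1.25 in LincIRS2 LNA NCD livers and 1.10 in Scr LNA NCD livers.

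**Figure D2:**
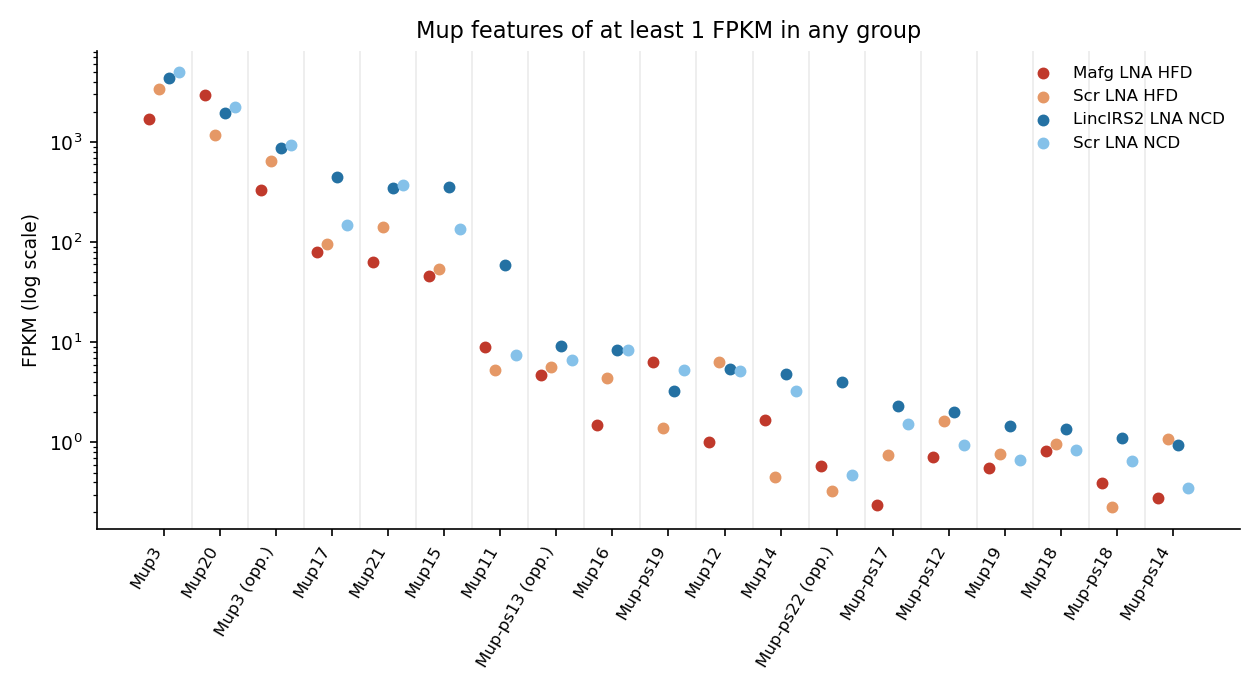
FPKM on a log axis of the 19 Mup features that reached 1 FPKM in any group, with 1 point for each group of 4 pooled livers and no error bars because the tables hold 1 value per group. Opp. marks a feature on the strand opposite to its gene. Mup20 is highest with Mafg LNA HFD (2936 FPKM), whereas Mup3 is lowest there (1709 FPKM), and Mup17, Mup15 and Mup11 are highest with LincIRS2 LNA NCD.

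The sum over all 49 features was 5195 FPKM in Mafg LNA HFD livers, 5483 FPKM in Scr LNA HFD livers, 8433 FPKM in LincIRS2 LNA NCD livers and 8802 FPKM in Scr LNA NCD livers. This is a sum of listed transcripts and not of all transcripts of the family. Protein-coding members made up 7.44% of the summed FPKM of all protein-coding features in Mafg LNA HFD livers, 6.70% in Scr LNA HFD livers, 9.69% in LincIRS2 LNA NCD livers and 10.2% in Scr LNA NCD livers. Pseudogenes contributed little, with 14.4 FPKM in Mafg LNA HFD livers, 12.2 FPKM in Scr LNA HFD livers, 23.9 FPKM in LincIRS2 LNA NCD livers and 16.9 FPKM in Scr LNA NCD livers.

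The first comparison set livers given Mafg LNA against those given control LNA, both under HFD. The Mup sum was almost the same in both groups, with 5195 FPKM in Mafg LNA HFD livers, against 5483 FPKM in Scr LNA HFD livers, a log2 ratio of -0.08. Its make-up was not. Mup20 was 2.51-fold higher with Mafg LNA (log2 1.33), while Mup3 was lower (log2 -0.97 on the strand of the gene and -0.96 on the opposite strand), as was Mup21 (log2 -1.14). Mup20 made up 56.5% of the sum in Mafg LNA HFD livers, against 21.3% in Scr LNA HFD livers, and Mup3 made up 39.3% in Mafg LNA HFD livers, against 72.8% in Scr LNA HFD livers. With Mup3 taken as its feature on the strand of the gene alone, the ratio of Mup20 to Mup3 was 1.72 in Mafg LNA HFD livers and 0.350 in Scr LNA HFD livers. It stood at 0.440 in LincIRS2 LNA NCD and 0.448 in Scr LNA NCD livers, so Mafg LNA HFD was the only group of the 4 with more Mup20 than Mup3. Without Mup20 the sum was lower with Mafg LNA by 0.93 on the log2 scale, and without the Mup3 feature of the gene's strand it was higher by 0.71.

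**Figure D3:**
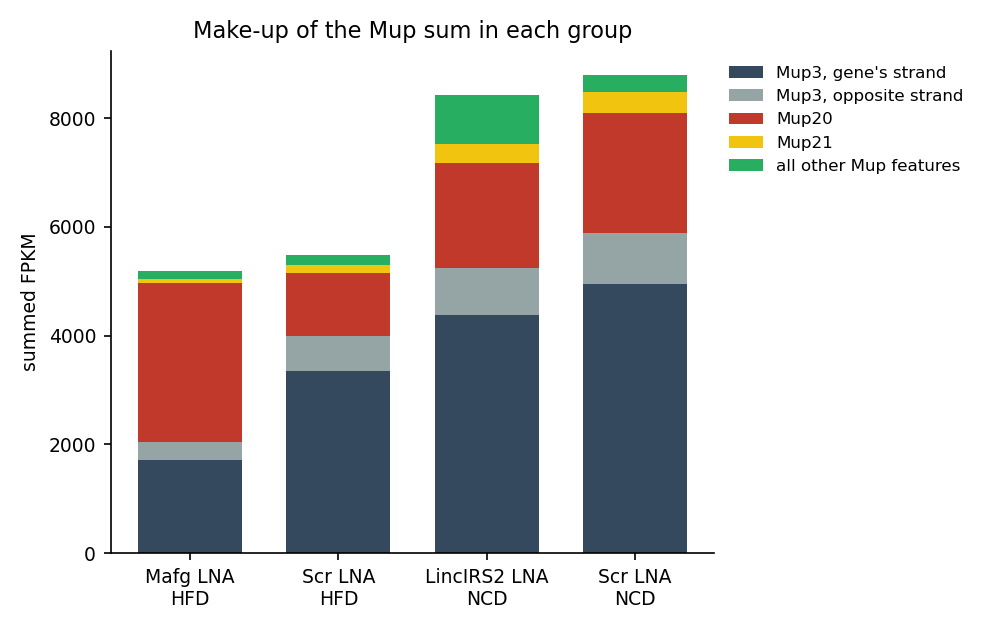
Summed FPKM of the 49 Mup features in each group of 4 pooled livers, stacked by member from 0. The first pair of bars have like heights (5195 and 5483 FPKM), but Mup20 takes 56.5% of the bar in Mafg LNA HFD and 21.3% in Scr LNA HFD. The green part, all members other than Mup3, Mup20 and Mup21, is 909 FPKM in LincIRS2 LNA NCD and 328 FPKM in Scr LNA NCD.

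Of 14 Mup features compared between Mafg LNA and Scr LNA under HFD, 3 were past 2-fold higher with Mafg LNA, against 4.06% of all 9108 features compared, and 5 were past 2-fold lower, against 3.58%. Beside Mup20, the higher features were Mup-ps19, with 6.40 FPKM in Mafg LNA HFD and 1.41 FPKM in Scr LNA HFD livers (log2 2.11), and Mup14, with 1.69 FPKM in Mafg LNA HFD and 0.455 FPKM in Scr LNA HFD livers (log2 1.69). Mup-ps19 is the pseudogene that shares words with Mup20 alone, and 16.7% of its words were its own. The lower features were Mup21, Mup12, Mup16, Mup-ps12 and Mup-ps14. Mup12 had 1.01 FPKM in Mafg LNA HFD livers and 6.36 FPKM in Scr LNA HFD livers (log2 -2.54), and Mup16 had 1.49 FPKM with Mafg LNA and 4.40 FPKM with Scr LNA (log2 -1.50). The pseudogene Mup-ps12 had 0.709 FPKM with Mafg LNA and 1.63 FPKM with Scr LNA (log2 -1.10), and Mup-ps14 had 0.281 FPKM with Mafg LNA and 1.08 FPKM with Scr LNA (log2 -1.63). The other features kept within 2-fold, among them Mup17 (log2 -0.25), Mup15 (log2 -0.23), Mup11 with 9.03 FPKM in Mafg LNA HFD and 5.33 FPKM in Scr LNA HFD livers (log2 0.75) and Mup-ps13, on the strand opposite to its gene, with 4.71 FPKM with Mafg LNA and 5.73 FPKM with Scr LNA (log2 -0.28). Mup14 reached 1 FPKM only with Mafg LNA, and Mup-ps12 and Mup-ps14 only with Scr LNA, which fixed the direction of each. The median log2 ratio was -0.62 over the 14 Mup features, these included, and -0.07 over all features compared. In the same comparison 34 features of other hepatocyte secreted proteins had a median of -0.39, with 1 past 2-fold higher and 2 lower. The sum of the 9 hepatocyte markers other than Alb was 4472 FPKM in Mafg LNA HFD livers and 6520 FPKM in Scr LNA HFD livers. The part of these markers, and of the lower globin sum, in the Mup values was not tested.

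**Figure D4:**
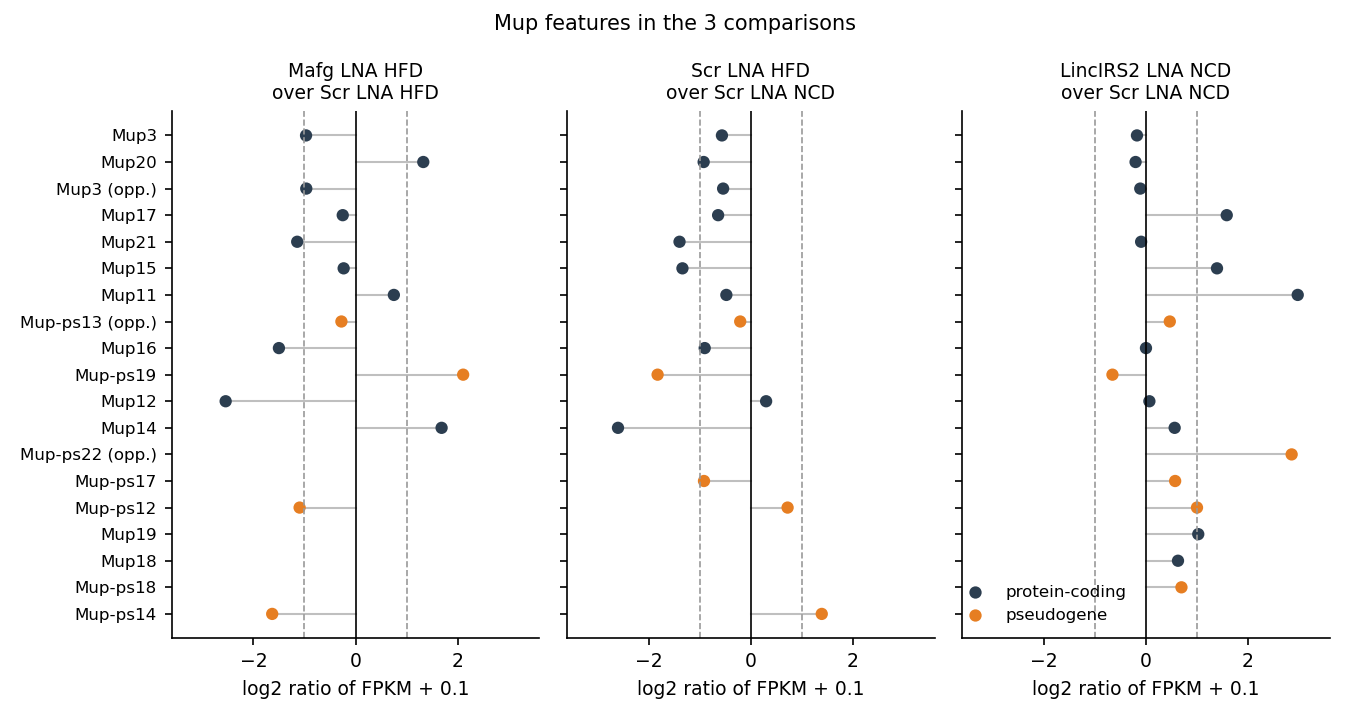
Log2 ratio of FPKM + 0.1 in the 3 comparisons for the 19 Mup features that reached 1 FPKM in any group, shown where a feature reached 1 FPKM in the higher of both groups. Dashed lines mark 2-fold, dark points protein-coding members and orange points pseudogenes. In the left panel Mup20 lies at 1.33 and Mup3 at -0.97, and in the right panel Mup17, Mup15 and Mup11 lie at 1.58, 1.39 and 2.97.

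The second comparison set HFD against NCD with the control LNA. Here the abundant members were lower together: the Mup sum was 5483 FPKM in Scr LNA HFD livers and 8802 FPKM in Scr LNA NCD livers, a log2 ratio of -0.68. Mup3 was lower by 0.56 on the log2 scale, Mup20 by 0.92, Mup21 by 1.39, Mup15 by 1.34, Mup17 by 0.64 and Mup11 by 0.48. The sum of all members other than Mup3, Mup20 and Mup21 was 180 FPKM in Scr LNA HFD livers and 328 FPKM in Scr LNA NCD livers. Of 15 Mup features compared, 4 were past 2-fold lower under HFD, against 2.83% of all 8974 features compared, and 1 was past 2-fold higher, against 3.10%. The lower features were Mup21, Mup15, Mup14 with 0.455 FPKM in Scr LNA HFD and 3.27 FPKM in Scr LNA NCD livers (log2 -2.60), and Mup-ps19 with 1.41 FPKM in Scr LNA HFD and 5.24 FPKM in Scr LNA NCD livers (log2 -1.82). The higher feature was Mup-ps14, with 1.08 FPKM in Scr LNA HFD livers and 0.350 FPKM in Scr LNA NCD livers (log2 1.39).

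Near the threshold but within it were Mup20, Mup16 with 4.40 FPKM in Scr LNA HFD and 8.31 FPKM in Scr LNA NCD livers (log2 -0.90), and Mup-ps17 with 0.755 FPKM under HFD and 1.51 FPKM under NCD (log2 -0.92). Mup12 had 6.36 FPKM in Scr LNA HFD livers and 5.14 FPKM in Scr LNA NCD livers (log2 0.30), unlike the other protein-coding members compared, all of which were lower under HFD. Mup-ps12 had 1.63 FPKM under HFD and 0.948 FPKM under NCD (log2 0.72), and Mup-ps13 had 5.73 FPKM under HFD and 6.63 FPKM under NCD (log2 -0.21). Mup14 and Mup-ps17 reached 1 FPKM only under NCD, and Mup-ps12 and Mup-ps14 only under HFD, which fixed the direction of each. The median log2 ratio was -0.64 over the 15 Mup features, these included, and 0.02 over all features compared. The summed hepatocyte markers other than Alb were 6520 FPKM in Scr LNA HFD livers and 6582 FPKM in Scr LNA NCD livers. Single markers differed in direction. Apoa2, the largest part of the sum, was higher under HFD (3946 against 3044 FPKM), as were Apoc3 and Serpina1c. Apoa1 (1646 against 2506 FPKM), Fgb (226 against 342 FPKM) and Tat (34.4 against 53.1 FPKM) were lower. Over the 8 hepatocyte marker features compared, the median log2 ratio was -0.32.

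The third comparison set livers given LincIRS2 LNA against those given control LNA, both under NCD. The Mup sum was 8433 FPKM in LincIRS2 LNA NCD livers and 8802 FPKM in Scr LNA NCD livers, a log2 ratio of -0.06, and the leading members differed little: -0.18 for Mup3, -0.20 for Mup20 and -0.09 for Mup21. Several members of the central group were higher. Mup11 had 59.2 FPKM in LincIRS2 LNA NCD livers and 7.45 FPKM in Scr LNA NCD livers (log2 2.97), and Mup17 and Mup15 were higher too (log2 1.58 and 1.39). All members other than Mup3, Mup20 and Mup21 summed to 909 FPKM in LincIRS2 LNA NCD livers and 328 FPKM in Scr LNA NCD livers, 2.77-fold higher. Members of this group share words with genes whose listed transcript is near 0, such as Mup2 and Mup10, and the part of the division of reads in this difference was not tested.

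Of 18 Mup features compared between LincIRS2 LNA and Scr LNA under NCD, 6 were past 2-fold higher, against 1.94% of all 8869 features compared, and 0 were past 2-fold lower, against 2.16%. Beside Mup11, Mup17 and Mup15 these were Mup19, with 1.46 FPKM in LincIRS2 LNA NCD and 0.666 FPKM in Scr LNA NCD livers (log2 1.02), Mup-ps12, with 2.00 FPKM with LincIRS2 LNA and 0.948 FPKM with Scr LNA, just at the threshold, and Mup-ps22 of chromosome 11, on the strand opposite to its gene, with 4.03 FPKM with LincIRS2 LNA and 0.471 FPKM with Scr LNA (log2 2.85). Not every central member was higher. Mup16 had 8.32 FPKM in LincIRS2 LNA NCD livers and 8.31 FPKM in Scr LNA NCD livers, and Mup12 had 5.40 FPKM with LincIRS2 LNA and 5.14 FPKM with Scr LNA. Mup18 was in between, with 1.35 FPKM with LincIRS2 LNA and 0.839 FPKM with Scr LNA (log2 0.63), as was Mup14, with 4.87 FPKM with LincIRS2 LNA and 3.27 FPKM with Scr LNA (log2 0.56). Most of the remaining pseudogenes were likewise higher by less than 2-fold. Mup-ps13 had 9.20 FPKM with LincIRS2 LNA and 6.63 FPKM with Scr LNA (log2 0.47), Mup-ps17 had 2.30 FPKM with LincIRS2 LNA and 1.51 FPKM with Scr LNA, and Mup-ps18 had 1.12 FPKM with LincIRS2 LNA and 0.650 FPKM with Scr LNA. Mup-ps19 was lower, with 3.29 FPKM with LincIRS2 LNA and 5.24 FPKM with Scr LNA (log2 -0.66). Mup18, Mup19, Mup-ps12, Mup-ps18 and Mup-ps22 were under 1 FPKM in Scr LNA NCD livers. They were compared only through their LincIRS2 LNA value, which fixed their direction. With a minimum of 1 FPKM in both groups, 3 features were past 2-fold higher. The median log2 ratio was 0.57 over the 18 Mup features, which includes and is raised by the features so fixed, and 0.02 over all features compared. Macrophage markers were lower in the same comparison, as given above, with 3 of 9 features past 2-fold lower, and their part in the Mup values was not tested.

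The features that did not enter every comparison were all low. Mup18 had 0.813 FPKM in Mafg LNA HFD and 0.955 FPKM in Scr LNA HFD livers, and Mup19 0.555 FPKM in Mafg LNA HFD and 0.760 FPKM in Scr LNA HFD livers. Of the pseudogenes, Mup-ps17 had 0.240 FPKM in Mafg LNA HFD livers, Mup-ps18 had 0.391 FPKM in Mafg LNA HFD and 0.225 FPKM in Scr LNA HFD livers, and Mup-ps22 had 0.579 FPKM in Mafg LNA HFD and 0.326 FPKM in Scr LNA HFD livers. None of these differences could be told from counting error, since depth is unknown. Mup-ps14 had 0.934 FPKM in LincIRS2 LNA NCD livers, against 0.350 FPKM in Scr LNA NCD livers.

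Mup3 and Mup20, the most abundant members in every group, lay near each other. Mup20 (chr4:62050234-62054158), Mup3 (chr4:62082541-62087543) and Mup21 (chr4:62147932-62150863) lay at the distal end of the cluster, and their 4 features held 5040 FPKM in Mafg LNA HFD, 5303 FPKM in Scr LNA HFD, 7524 FPKM in LincIRS2 LNA NCD and 8474 FPKM in Scr LNA NCD livers. Of these, Mup20 was higher with Mafg LNA, while Mup3 and Mup21 were lower. The 12 features inside the cluster that are no Mup summed to 20.0 FPKM in Mafg LNA HFD livers, 33.3 FPKM in Scr LNA HFD livers, 29.7 FPKM in LincIRS2 LNA NCD livers and 18.4 FPKM in Scr LNA NCD livers, most of it from Gm13775. Among 20 genes that flank the cluster, 7 features were compared, and 0 of them were past 2-fold in any of the 3 comparisons. Over all features the share past 2-fold in a given direction was 1.94% to 4.06%.

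Promoter sequence was looked at to show what members share at their start. RefSeq windows of 300 bases (GRCm38.p6), mostly upstream of the RefSeq gene start, were given for 14 of the 21 protein-coding genes, Mup3, Mup21, Mup17 and Mup15 among them, and not for Mup20. The run TATATAAG, a TATA-box-like sequence, was searched on both strands and was held by 11 of the 14, against 1.01% of 32851 promoter windows. It began 8 to 31 bases before the RefSeq start in the 9 members where it lies wholly upstream of that start. The Ensembl gene spans of Mup3, Mup21, Mup17 and Mup15 begin further upstream and include the run. The run was also held by Mup11 and Mup14. Among its holders, Mup11 (log2 0.75) was higher with Mafg LNA, while Mup3, Mup21, Mup17 and Mup15 were lower. The direction of Mup14 was fixed, as given above. The 60 bases that end with this run, in capitals, are shown for 4 abundant members, all from the minus strand: chr4:62087321-62087380 for Mup3, chr4:62150842-62150901 for Mup21, chr4:61595850-61595909 for Mup17 and chr4:61439722-61439781 for Mup15.
Mup3: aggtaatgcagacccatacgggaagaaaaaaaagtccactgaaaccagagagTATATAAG
Mup21: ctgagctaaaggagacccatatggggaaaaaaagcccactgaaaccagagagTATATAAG
Mup17: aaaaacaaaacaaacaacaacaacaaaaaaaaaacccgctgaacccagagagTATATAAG
Mup15: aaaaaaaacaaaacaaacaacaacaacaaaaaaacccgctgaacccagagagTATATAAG

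In these lines the bases just before the run are nearly shared, while Mup17 and Mup15 carry a long run rich in A and C further upstream where Mup3 and Mup21 do not. The STAT element TTCNNNGAA was in 0 of the 14 windows, against 8.30% of all promoter windows, and the MAF recognition sequence TGCTGAC in 0 of the 14, against 4.67%, each searched on both strands. These letters are absent from short windows only, and nothing follows for binding of either factor.

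Other genes with a sex difference in mouse liver were set beside the Mup genes, since both answer to growth hormone. Under HFD against NCD, 8 of 15 features of genes known as male-biased were past 2-fold lower and 0 higher, and 7 of 13 features of genes known as female-biased were past 2-fold higher and 0 lower. Of the higher ones, the features of Hao2, Atp6v0d2, Cyp2b9 and Cyp2a4 reached 1 FPKM only under HFD, which fixed their direction. Those of Cyp4a14 and Cyp17a1 reached it in both groups. Of the lower ones, the Moxd1 feature reached 1 FPKM only under NCD. Over all features compared, 2.83% were past 2-fold lower and 3.10% higher. The largest male-biased differences were those of Moxd1, with 0.0162 FPKM in Scr LNA HFD and 3.56 FPKM in Scr LNA NCD livers, Cyp7b1 (log2 -1.80) and Hsd3b5 (log2 -1.55), enzymes of steroid metabolism, and Gstp1 (log2 -1.41). The values of Moxd1, Cyp7b1 and Hsd3b5 are of features opposite to their gene, and the more abundant Cyp7b1 feature on the strand of the gene stood at -0.70. Some genes, such as C6 and Cyp2b9, have several features, and each feature was counted. Many of those compared lie opposite to their gene. Cyp2b9, a female-biased cytochrome P450, had 7.76 FPKM in Scr LNA HFD livers, against 0.0935 FPKM in Scr LNA NCD livers, in a feature on the strand opposite to its gene. With Mafg LNA under HFD, 9 of 13 female-biased features were past 2-fold lower and 0 higher, and Cyp2b9 had 0.447 FPKM in Mafg LNA HFD livers, against 7.76 FPKM in Scr LNA HFD livers. Among the 9, features of Cyp2c40, Hao2, Cyp2b9 and Cyp2a4 and the opposite feature of Cyp17a1 reached 1 FPKM only with Scr LNA. Their direction was thus fixed. Over all features compared between these groups, 3.58% were past 2-fold lower and 4.06% higher. Of 16 male-biased features 4 were past 2-fold higher, among them Gstp1 (log2 1.29) and the opposite feature of Cyp7b1 (log2 1.18, against 0.35 on the strand of the gene), and 1 was lower, Serpina1e, with 2.77 FPKM in Mafg LNA HFD livers and 39.5 FPKM in Scr LNA HFD livers. The remaining higher ones were opposite features of Scara5 (log2 1.66 and 1.20), which reached 1 FPKM only with Mafg LNA, so their direction was fixed. Within 2-fold, opposite features of Hsd3b5 (log2 -0.99) and Slco1a1 (log2 -0.81) were lower. The median log2 ratio over the 16 male-biased features was 0.26. Male-biased features thus went in both directions with Mafg LNA, as did Mup20 (higher) and Mup3 and Mup21 (lower). With LincIRS2 LNA, 4 of 18 male-biased features were past 2-fold higher, all 4 of Moxd1, and 1 was lower, the opposite feature of Cyp7b1 (log2 -1.42). Only 1 Moxd1 feature reached 1 FPKM in both groups, with 10.9 FPKM with LincIRS2 LNA and 3.56 FPKM with Scr LNA. The other Moxd1 features were compared only through their LincIRS2 LNA value, which fixed their direction. The Cyp7b1 feature on the strand of the gene had 60.4 FPKM in LincIRS2 LNA NCD livers and 44.7 FPKM in Scr LNA NCD livers (log2 0.43). Of 8 female-biased features 1 was higher and 2 lower. The lower ones were of Cyp2c40, and 1 of them reached 1 FPKM only with Scr LNA, which fixed its direction. The shares over all features compared were 1.94% higher and 2.16% lower.

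Known regulators of Mup genes were looked up from a list of 20 (the growth hormone receptor, STAT5, nuclear receptors and hepatocyte transcription factors). With Mafg LNA, 24 features were compared. Of these, 0 were past 2-fold higher and 1 lower, against 4.06% and 3.58% of all features compared. Many were features of Thrb alone, while Igf1, Stat5a, Zhx2, Nr3c1, Jak2, Cish, Bcl6 and Foxa1 never reached 1 FPKM, so the counts do not speak for all 20 genes. Ghr, the growth hormone receptor, had 13.9 FPKM in Mafg LNA HFD livers and 20.7 FPKM in Scr LNA HFD livers in its highest feature, which lies opposite to the gene. For HFD against NCD, 1 of 25 was higher, Cebpa, a hepatocyte transcription factor (log2 1.29), and 1 lower, a feature opposite to Socs2, a target and inhibitor of growth hormone signalling (log2 -1.16). The shares over all features were 3.10% and 2.83%. With LincIRS2 LNA, 1 of 23 was higher and 0 lower, against 1.94% and 2.16% of all features. The higher one was a low feature of Thrb, a thyroid hormone receptor, with 1.48 FPKM with LincIRS2 LNA and 0.481 FPKM with Scr LNA (log2 1.45). All other Thrb features compared stayed within 2-fold, the highest with 3.44 FPKM and 3.15 FPKM (log2 0.12).

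Other lipocalins and related carriers had a median log2 ratio of -0.13 with Mafg LNA, of -0.44 under HFD against NCD and of -0.08 with LincIRS2 LNA. With Mafg LNA 3 of 10 features were past 2-fold higher and 0 lower, against 4.06% and 3.58% of all features compared. A feature opposite to Lcn2 had 2.83 FPKM in Mafg LNA HFD livers and 0.706 FPKM in Scr LNA HFD livers. The Lcn2 feature on the strand of the gene had at most 0.0089 FPKM in any group. Orm2 had 24.6 FPKM with Mafg LNA and 8.18 FPKM with Scr LNA, and a feature opposite to Fabp1 had 2.24 FPKM with Mafg LNA and 0.747 FPKM with Scr LNA. The features opposite to Lcn2 and Fabp1 reached 1 FPKM only with Mafg LNA, which fixed their direction. Lcn2 and Orm2 are both known as acute-phase genes. Under HFD against NCD, 1 of 9 was past 2-fold lower, the opposite feature of Lcn2 (log2 -1.15), and 0 higher, against 2.83% and 3.10%. That Lcn2 feature reached 1 FPKM only under NCD, which fixed its direction here. Apom, a lipocalin of plasma lipoproteins, stood at -0.75 and Orm2 at -0.82, in the direction of the abundant Mup genes. With LincIRS2 LNA 0 of 9 were past 2-fold in either direction, against 1.94% higher and 2.16% lower over all features. Orm2 and the opposite feature of Lcn2 were highest (log2 0.99 and 0.94). Rbp4, the retinol carrier, stayed between 480 and 533 FPKM in the 4 groups.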

How the data were processed

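Total RNA of mouse liver was depleted of rRNA, made into strand-specific libraries and sequenced in paired reads of 76 bases. Per the labels and the methods of the study, the authors filtered rRNA reads with Bowtie2 2.2.9, aligned reads to GRCm38 (mm10) with STAR 2.6.0c, assembled transcripts with Cufflinks 2.2.1 and compared groups with Cuffdiff. The FPKM values in the deposited tables were the authors' own, with 1 pooled value for the 4 livers of each group. How reads that fit several places were divided is not given in the sources used here. The 3 tables hold 4 groups (16 livers), and 2 further groups (8 of the 24 livers) were not analysed here. Columns with the authors' own comparisons (fold change, test statistic, p and q) were not used. Age, length of LNA treatment and read length follow the labels. For these livers the study's methods give a greater age and a longer treatment, and they give reads shorter by 1 base.

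Tables were joined by feature, and values of shared groups were identical (0 differences). Strand was inferred from the order of feature numbers. Ratios, sums and counts were computed with pandas 2.3.3 and numpy 2.4.6 under Python 3.11.15, after the code was tested on simulated data, with a pseudocount of 0.1 FPKM and a minimum of 1 FPKM in the higher group. Coding sequences were aligned with biopython 1.88. Every Mup feature of at least 1 FPKM in any group was named, and up to 4 features of largest ratio from each list of other genes. Lists were Mup regulators, male-biased and female-biased genes, other lipocalins, hepatocyte secreted proteins, cluster neighbours and markers of hepatocytes, macrophages, stellate, endothelial, bile duct, erythroid, T and B cells and of salivary and lacrimal glands. The regulator counted as lower with Mafg LNA is not reported here by name. Members and lists were chosen with earlier results of these data known.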

Additional observations from a re-analysis of the deposited data

How the results depend on the processing

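No paired analysis was possible because the tables hold 1 pooled value per group, and no liver could be left out for the same reason. The log2 ratios of the Mup sum stayed within 1.5-fold of -0.08 (Mafg LNA HFD over Scr LNA HFD), -0.68 (Scr LNA HFD over Scr LNA NCD) and -0.06 (LincIRS2 LNA NCD over Scr LNA NCD) under every alternative tried, except that the first was 0.71 without the feature of highest mean FPKM (Mup3) and -0.93 without Mup20. Leaving out Mup20, and scaling to all protein-coding features, were chosen after seeing the data. On the gene's strand only, the first ratio was 0.01. Centring on the median of all features changed ratios by less than 0.1. For Mafg LNA, 6 features in place of 3 were past 2-fold higher with no minimum, and 3 in place of 5 were lower with a pseudocount of 1, as with a minimum of 1 FPKM in both groups. For diet, 0 in place of 1 were higher with a pseudocount of 1 and with the minimum in both groups, 2 were higher at 1.5-fold, and 8 in place of 4 were lower at 1.5-fold. For LincIRS2 LNA, 10 in place of 6 were higher with no minimum and 3 with the minimum in both groups, and 1 in place of 0 was lower at 1.5-fold. In all, 60 settings for sums and counts stayed within 1.5-fold and 12 did not, and for single features 135 did and 6 did not. No value turned its direction past 2-fold. With depth unknown, differences of features near 1 FPKM cannot be told from counting error.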

Other observations

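Amy1, the single salivary and lacrimal gland marker above 0, had 1.25 FPKM in Mafg LNA HFD livers, 6.44 FPKM in Scr LNA HFD livers, 5.59 FPKM in LincIRS2 LNA NCD livers and 3.30 FPKM in Scr LNA NCD livers, while Bpifa2 and Lcn11 were listed at 0 in all groups. The 4 endothelial markers summed to between 9.67 FPKM in Mafg LNA HFD and 11.2 FPKM in Scr LNA NCD livers, the 5 stellate cell markers to between 54.9 FPKM in LincIRS2 LNA NCD and 59.7 FPKM in Scr LNA HFD livers, the 4 bile duct markers to between 1.27 FPKM in LincIRS2 LNA NCD and 1.68 FPKM in Scr LNA HFD livers, and the 4 T and B cell markers to between 0.343 FPKM in LincIRS2 LNA NCD and 0.709 FPKM in Mafg LNA HFD livers.

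Another family of near-identical secreted proteins, the alpha-1-antitrypsins, also differed in make-up between groups. Serpina1a had 0.502 FPKM in Scr LNA HFD livers and 11.4 FPKM in Scr LNA NCD livers, whereas Serpina1b had 336 FPKM in Scr LNA HFD and 145 FPKM in Scr LNA NCD livers, and Serpina1c 629 FPKM in Scr LNA HFD and 608 FPKM in Scr LNA NCD livers. Of the hepatocyte secreted protein features, 2 of 34 were past 2-fold higher and 2 lower with HFD, against 3.10% and 2.83% of all features compared. With LincIRS2 LNA, 4 of 36 were higher, including both features of Alb, and 0 lower, against 1.94% and 2.16%.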
